A study of Mus musculus with 10 samples.

Results

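Insulin, PI3K, AKT and mTOR signalling was examined through 39 listed genes in the hearts of mice that lacked 3-phosphoinositide-dependent kinase 1 (PDK1) in adipocytes. Genes were found by their symbol in the deposited expression table, and 37 of the 39 were present among its 11790 genes. Phlpp2 and Rictor were not analysed here. RNA from heart tissue was sequenced in 5 A-PDK1KO mice, in which the kinase gene Pdpk1 was deleted in adipocytes only, and in 5 control mice that carried the loxP-flanked alleles (PDK1 flox/flox) without that deletion. The mice were 10 to 11 weeks old and fed at random, and the sources used here do not name the promoter that drove the recombinase. Heart muscle itself was not the target of the deletion. Nothing in the labels says that hearts share a litter or a batch. The p-values set a difference between the groups against the spread of these 10 hearts within their groups.

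The pathway begins with insulin and IGF1 receptors, which phosphorylate IRS docking proteins and through them recruit phosphoinositide 3-kinase (PI3K) to the membrane. The lipid that PI3K makes brings PDK1 and AKT together, and PDK1 and the second mTOR complex (mTORC2) phosphorylate AKT. Active AKT inhibits GSK3, the TSC complex, the RabGAP TBC1D4 and the FoxO transcription factors. In heart muscle this promotes glucose uptake, glycogen and protein synthesis and growth. Messenger RNA levels do not show the phosphorylation through which most of these proteins are controlled.

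Levels were given by the authors as FPKM (fragments normalized to gene length and to library size), a scale on which genes of different length can be compared. Library sizes recovered from these values lay between 9249245 and 11384431 counted reads. Genes that averaged 1 FPKM or more were compared on the log2(FPKM + 1) scale with limma, and a gene was called at a Benjamini-Hochberg adjusted p under 0.05 over all 9987 genes tested. The pseudocount makes such differences smaller than true log2 ratios for low genes. Ventricular markers were high in all hearts (Myh6, the main myosin heavy chain of the adult mouse heart, at 1276 to 2176 FPKM). Of 6 adipocyte markers 2 were in the table, Cfd at 0 to 1.36 FPKM and Fabp4, which endothelial cells also express, at 76.2 to 139 FPKM. None of the 37 markers tested was called, and the summed level overlapped between the groups for each list with a gene in the table (no lymphocyte marker was). Of single markers, 1 did not overlap, the troponin gene Tnni3 of the ventricular list. It was at 1774 to 1957 FPKM in A-PDK1KO hearts and 2050 to 2309 FPKM in control hearts (limma difference -0.21, adjusted p = 0.0605). Of the same list, Myl2 and Actc1 were also lower (limma differences -0.18 and -0.22, unadjusted p = 0.0140 and 0.0388). Myh6, Tnnt2 and Ryr2 differed by -0.11, -0.02 and -0.003. The atrial marker Myl7 was above 10 FPKM in A-PDK1KO replicates 3 and 5 and control replicates 2 and 5. It was below 1 FPKM in the other 6, in which the atrial marker Sln was at 0 and Myl4 at most 0.310 FPKM. Nppa, also of the atrial list, did not follow this split. Its lowest values were 139 and 159 FPKM in A-PDK1KO replicates 3 and 5, against 486 and 492 FPKM in control replicates 1 and 5. Nppa was lower in A-PDK1KO hearts without being called (limma difference -0.84, unadjusted p = 0.00317, adjusted p = 0.0908), and its groups overlapped. A-PDK1KO replicate 2 and control replicate 4 stood apart from the rest: of all tested genes, 35.7% had their highest level of the 10 hearts in A-PDK1KO replicate 2 and 22.5% in control replicate 4. In bulk tissue, fewer cells of a type and less RNA per cell cannot be told apart.

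Akt1 was lower in A-PDK1KO hearts, and of the 36 members tested it was the 1 that was called, against 2.08% of all genes tested. Among the other 35, Foxo1 lay higher and Akt2 lower with no overlap between groups, without passing the threshold. Akt1 and Akt2 encode the main AKT kinases of the heart, and Foxo1 encodes a transcription factor that AKT keeps out of the nucleus. To show where transcription of these 3 genes starts, the 250 bases before their RefSeq starts (GRCm38.p6, which has mm10 coordinates) are given on the strand of the gene, 5′ to 3′. Capitals mark the letters of the FoxO consensus GTAAACA, which reads TGTTTAC where it lies on the opposite strand. They also mark the GC box GGGCGG, which then reads CCGCCC. Akt1 has 2 RefSeq starts, at windows chr12:112674885-112675134 and chr12:112674277-112674526 on the minus strand. The first of 4 Akt2 windows is chr7:27591302-27591551 and the Foxo1 window is chr3:52268087-52268336, both on the plus strand.
Akt1 first start: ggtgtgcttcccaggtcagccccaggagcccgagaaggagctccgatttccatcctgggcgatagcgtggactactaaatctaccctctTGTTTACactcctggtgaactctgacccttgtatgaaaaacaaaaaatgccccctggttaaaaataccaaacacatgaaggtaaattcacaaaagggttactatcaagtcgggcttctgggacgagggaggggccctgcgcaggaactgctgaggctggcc
Akt1 second start: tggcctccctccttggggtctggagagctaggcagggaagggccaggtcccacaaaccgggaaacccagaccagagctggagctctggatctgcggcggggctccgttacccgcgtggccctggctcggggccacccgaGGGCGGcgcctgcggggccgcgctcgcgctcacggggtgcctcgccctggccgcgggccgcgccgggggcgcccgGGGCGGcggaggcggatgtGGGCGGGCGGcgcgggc
Akt2 first start: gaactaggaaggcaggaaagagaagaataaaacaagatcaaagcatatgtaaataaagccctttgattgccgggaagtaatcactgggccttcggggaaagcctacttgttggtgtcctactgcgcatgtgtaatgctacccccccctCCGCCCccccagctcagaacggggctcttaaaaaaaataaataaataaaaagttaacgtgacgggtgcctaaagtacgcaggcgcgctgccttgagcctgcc
Foxo1 start: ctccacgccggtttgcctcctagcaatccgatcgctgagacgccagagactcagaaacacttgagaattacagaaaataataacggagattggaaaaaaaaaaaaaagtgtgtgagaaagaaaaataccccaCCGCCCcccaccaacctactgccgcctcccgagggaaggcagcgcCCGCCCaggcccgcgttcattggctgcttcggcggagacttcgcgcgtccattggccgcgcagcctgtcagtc
The first Akt1 window holds TGTTTAC once, 161 bases before the start, no GC box, and 52.0% G and C. The second Akt1 window holds 4 GC boxes, of which the last 2 overlap, and 78.4% G and C. The Akt2 window holds 1 GC box and the Foxo1 window holds 2. Over all 32851 RefSeq windows of the same length, 3.17% hold GTAAACA and 32.7% hold GGGCGG on either strand, and the median share of G and C is 52.4%. Of the 37 members 32 matched the RefSeq table, with 42 windows, of which 3 (7.14%) hold GTAAACA and 28 (66.7%) hold GGGCGG. The windows with GTAAACA belong to Akt1 and Mapkap1. These matches describe letters and are not evidence of binding.

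Pdpk1, the gene deleted in adipocytes, was measured first (mm10 chromosome 17, 24073680 to 24150924, minus strand). Its level was 2.73, 4.04, 3.64, 3.70 and 3.17 FPKM in A-PDK1KO replicates 1 to 5, against 3.77, 3.77, 3.54, 3.54 and 3.14 FPKM in control replicates 1 to 5. The groups overlapped, and A-PDK1KO hearts held both the lowest and the highest value. By gene bounds Pdpk1 overlaps CT010502.2 on the same strand and CT010502.1 on the opposite strand. Whether exons, and so reads, are shared was not examined. Means were 3.46 ± 0.513 FPKM in A-PDK1KO and 3.55 ± 0.256 FPKM in control hearts (SD, n = 5 each). The difference of -0.036 on the log2(FPKM + 1) scale had a 95% interval of -0.23 to 0.16 (exact two-sided permutation p = 0.714, over the 252 splits of the hearts, whose smallest p is 0.00794). Without A-PDK1KO replicate 1, the lowest heart, the difference was 0.027. The whole-gene level in heart does not check the deletion, which was made in adipocytes and whose exons are not named in the sources used here.

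Akt1 lies on chromosome 12 (mm10, 112653821 to 112674884, minus strand) and overlaps only the microRNA gene Mir6939. AKT1 is the AKT kinase most tied to cell growth and survival. Its transcript was at 21.4, 24.8, 21.8, 24.6 and 23.0 FPKM in A-PDK1KO replicates 1 to 5, against 29.8, 30.1, 31.8, 30.4 and 32.1 FPKM in control replicates 1 to 5. Every A-PDK1KO heart lay below every control heart, with a gap between 24.8 and 29.8 FPKM. The marker Tnni3 was lower in the same way, and its part in the Akt1 difference was not tested. The mean was 23.1 ± 1.56 FPKM in A-PDK1KO hearts and 30.8 ± 1.04 FPKM in control hearts (SD, n = 5 each), a ratio of 0.750. On the log2(FPKM + 1) scale the difference was -0.40 ± 0.06 (SE), with a 95% interval of -0.53 to -0.27 and a limma adjusted p of 0.00956, the 21st smallest of all genes tested. Each library held 842 to 1409 reads of Akt1, for which counting alone gives a coefficient of variation of 2.99%. The measured coefficients were 6.73% in A-PDK1KO and 3.37% in control hearts. Akt1 was called whichever of the 10 hearts was omitted, with limma adjusted p between 0.0151 and 0.0341. It was not called when values were rescaled to TPM (-0.40, limma adjusted p = 0.0528). Nor was it among the 6 hearts with Myl7 under 10 FPKM (-0.37, limma adjusted p = 0.305, 3 against 3).

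Akt2, the AKT kinase most tied to glucose uptake, lies on chromosome 7 (mm10, 27591552 to 27640826, plus strand). Its level was 18.7, 20.6, 19.3, 19.6 and 20.0 FPKM in A-PDK1KO replicates 1 to 5, against 21.2, 21.4, 21.7, 23.3 and 21.7 FPKM in control replicates 1 to 5. The groups did not overlap, but the highest A-PDK1KO heart and the lowest control heart were 20.6 and 21.2 FPKM. Means were 19.6 ± 0.742 FPKM in A-PDK1KO and 21.9 ± 0.832 FPKM in control hearts (SD, n = 5 each), a ratio of 0.898. The difference was -0.15 on the log2(FPKM + 1) scale (95% interval -0.27 to -0.03), which limma did not call (unadjusted p = 0.0210, adjusted p = 0.218).

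**Figure D1:**
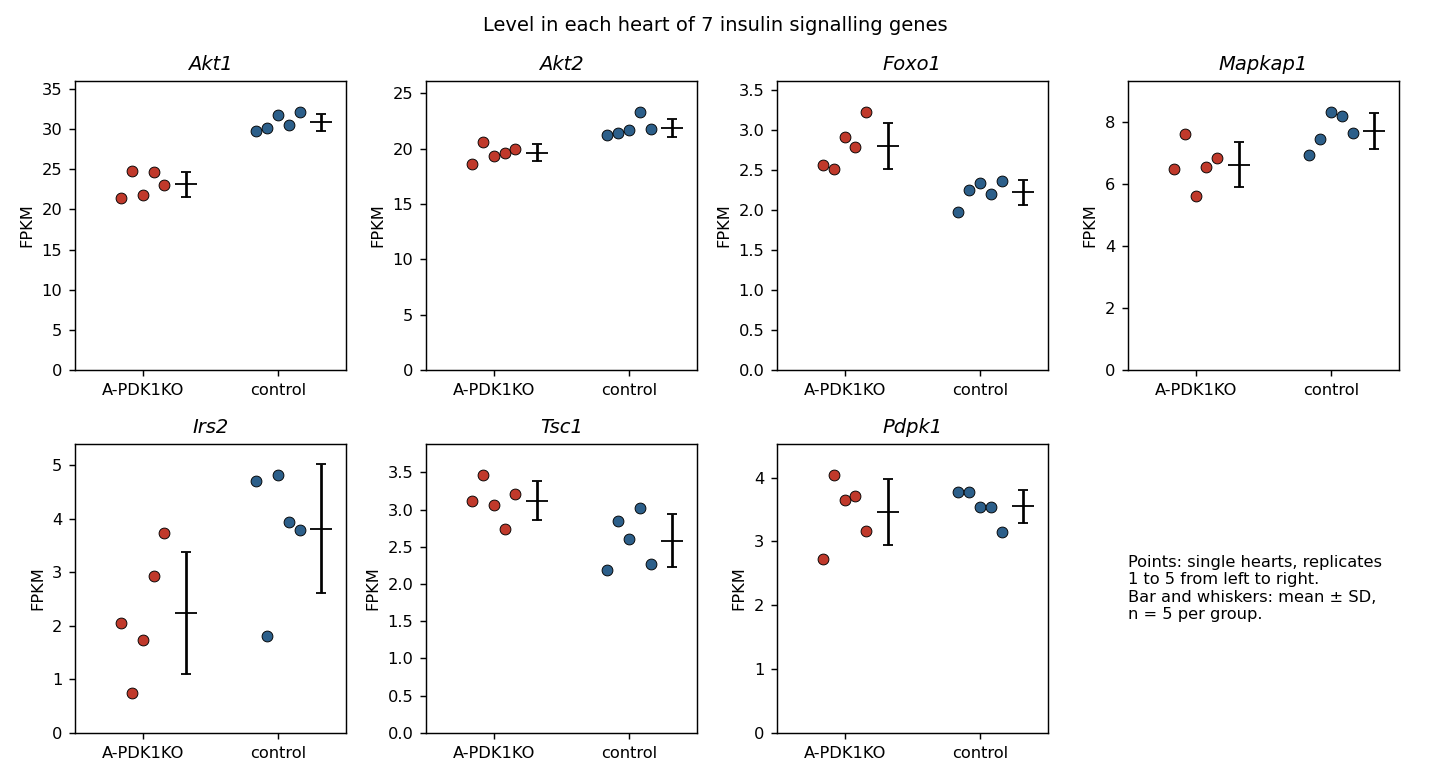
Level in FPKM (vertical axes, from 0) of 7 genes in single hearts, A-PDK1KO at the left and control at the right of each panel, with mean and SD (n = 5). Akt1, Akt2 and Foxo1 show no overlap between the groups, and the gap is widest for Akt1 (24.8 against 29.8 FPKM), while Pdpk1 overlaps.

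The FoxO factors act in the nucleus when AKT activity is low, and they drive genes of proteolysis, autophagy and fasting metabolism. Foxo1 (mm10 chromosome 3, 52268336 to 52353221, plus strand) was at 2.56, 2.51, 2.91, 2.79 and 3.22 FPKM in A-PDK1KO replicates 1 to 5, against 1.97, 2.24, 2.33, 2.20 and 2.36 FPKM in control replicates 1 to 5. All A-PDK1KO hearts lay above all control hearts, with 2.51 and 2.36 FPKM as the nearest values. The mean was 2.80 ± 0.287 FPKM in A-PDK1KO and 2.22 ± 0.154 FPKM in control hearts (SD, n = 5 each), a ratio of 1.26. The difference of 0.24 (95% interval 0.07 to 0.41) did not pass in limma (unadjusted p = 0.0105, adjusted p = 0.163). Foxo1 rested on 158 to 289 reads per library. By gene bounds it overlaps Gm38034 and, on the opposite strand, Gm20402, and whether exons are shared was not examined. Foxo3, the FoxO gene most tied to muscle atrophy, averaged 10.5 ± 0.959 FPKM in A-PDK1KO and 9.67 ± 1.68 FPKM in control hearts. Foxo4 averaged 17.9 ± 4.13 FPKM in A-PDK1KO and 17.4 ± 3.65 FPKM in control hearts, with ranges of 13.2 to 23.9 FPKM in A-PDK1KO and 13.5 to 23.0 FPKM in control hearts. Per length, Foxo4 was thus the highest of the 3 FoxO transcripts and Foxo1 the lowest in both groups.

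Upstream of PI3K, Insr encodes the insulin receptor and Igf1r the IGF1 receptor. Insr averaged 8.56 ± 0.844 FPKM in A-PDK1KO and 8.39 ± 1.04 FPKM in control hearts (limma difference 0.03, 95% interval -0.17 to 0.23). Igf1r lay between 1.28 and 1.86 FPKM in A-PDK1KO hearts and between 1.17 and 1.97 FPKM in control hearts (limma difference 0.13, 95% interval -0.10 to 0.37). Within single hearts Insr exceeded Igf1r by 4.78 to 6.34 times in A-PDK1KO and by 4.99 to 7.61 times in control mice. Grb10 and Grb14 encode adaptors that bind the receptors and limit their signal. Grb14, the more abundant per length, averaged 15.1 ± 0.344 FPKM in A-PDK1KO and 13.5 ± 1.75 FPKM in control hearts, and its range was 14.5 to 15.4 FPKM in A-PDK1KO and 11.2 to 15.9 FPKM in control hearts. Grb10 averaged 4.25 ± 0.576 FPKM in A-PDK1KO and 4.80 ± 0.584 FPKM in control hearts.

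The docking proteins IRS1 and IRS2 couple the receptors to PI3K, and Irs2 is a known FoxO target in liver. Irs2 (mm10 chromosome 8, 10984681 to 11008458, minus strand) was at 2.06, 0.746, 1.73, 2.93 and 3.73 FPKM in A-PDK1KO replicates 1 to 5, against 4.70, 1.81, 4.82, 3.94 and 3.79 FPKM in control replicates 1 to 5. The groups overlapped because control replicate 2 lay at 1.81 FPKM, below 3 of the A-PDK1KO hearts, and the other 4 control hearts were above all A-PDK1KO hearts. Means were 2.24 ± 1.14 FPKM in A-PDK1KO and 3.81 ± 1.21 FPKM in control hearts (SD, n = 5 each). The difference of -0.61, the largest in size among the members, had a 95% interval of -1.16 to -0.05 and was not called (limma unadjusted p = 0.0355, adjusted p = 0.282). Without A-PDK1KO replicate 2, the lowest heart, the difference was -0.40, and without that heart and control replicate 4 it was -0.38. In the 6 hearts with Myl7 under 10 FPKM the difference was -0.99. Irs2 overlaps 9530052E02Rik on the opposite strand. It was the most variable member among A-PDK1KO hearts, with a coefficient of variation of 50.9%, against 31.7% in control hearts and 7.21% from counting alone. Irs1 averaged 1.72 ± 0.271 FPKM in A-PDK1KO and 1.40 ± 0.369 FPKM in control hearts (limma difference 0.19, adjusted p = 0.499). The ratio of Irs1 to Irs2 within a heart ran from 0.473 to 2.30 in A-PDK1KO and from 0.274 to 0.531 in control hearts, which overlapped.

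Of the PI3K genes, the regulatory subunit genes Pik3r1 and Pik3r2 averaged 9.65 ± 1.28 and 4.30 ± 0.897 FPKM in A-PDK1KO hearts, against 8.70 ± 0.940 and 3.96 ± 1.19 FPKM in control hearts. The catalytic subunit genes Pik3ca and Pik3cb averaged 4.39 ± 0.608 and 1.99 ± 0.193 FPKM in A-PDK1KO hearts, against 3.95 ± 0.387 and 1.87 ± 0.145 FPKM in control hearts. None of the 4 was called, and their limma differences ran from 0.06 to 0.13. Pik3c2a, a class II PI3K that makes other phosphoinositides, averaged 0.794 ± 0.165 FPKM in A-PDK1KO and 0.724 ± 0.0904 FPKM in control hearts and was too low to be tested. The phosphatase genes Inppl1 and Inpp5k, whose products remove a phosphate from the PI3K lipid, averaged 17.9 ± 2.37 and 5.21 ± 0.160 FPKM in A-PDK1KO hearts, against 16.4 ± 1.37 and 4.76 ± 0.353 FPKM in control hearts. Phlpp1, whose product dephosphorylates AKT, averaged 2.82 ± 0.362 FPKM in A-PDK1KO and 2.75 ± 0.504 FPKM in control hearts. These 3 were not called, with limma differences of 0.12, 0.11 and 0.03.

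Of the mTOR complex genes, Mapkap1 encodes SIN1, an mTORC2 subunit needed for the phosphorylation of AKT by that complex. It lies on chromosome 2 (mm10, 34406771 to 34624950, plus strand) and was at 6.50, 7.61, 5.62, 6.56 and 6.85 FPKM in A-PDK1KO replicates 1 to 5, against 6.93, 7.46, 8.33, 8.21 and 7.63 FPKM in control replicates 1 to 5. The groups overlapped through A-PDK1KO replicate 2, and the other 4 A-PDK1KO hearts were below all control hearts. Means were 6.63 ± 0.716 FPKM in A-PDK1KO and 7.71 ± 0.572 FPKM in control hearts (limma difference -0.19, unadjusted p = 0.0346, adjusted p = 0.278). Mapkap1 overlaps Gm13408 and, on the opposite strand, Gm13406 and Gm13407. The kinase gene Mtor averaged 4.37 ± 0.572 FPKM in A-PDK1KO and 3.69 ± 0.420 FPKM in control hearts (limma difference 0.20, 95% interval -0.01 to 0.40). Mlst8, a subunit of both complexes, averaged 2.01 ± 0.357 FPKM in A-PDK1KO and 1.62 ± 0.328 FPKM in control hearts. Rptor, the scaffold of mTORC1, averaged 1.79 ± 0.237 FPKM in A-PDK1KO and 1.85 ± 0.338 FPKM in control hearts. Akt1s1, whose product PRAS40 inhibits mTORC1 until AKT phosphorylates it, averaged 18.4 ± 1.38 FPKM in A-PDK1KO and 18.4 ± 1.00 FPKM in control hearts. The mTOR inhibitor gene Deptor averaged 1.63 ± 0.314 FPKM in A-PDK1KO and 1.49 ± 0.290 FPKM in control hearts.

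TSC1 and TSC2 form the complex that holds RHEB, the activator of mTORC1, in its inactive state. Tsc1 (mm10 chromosome 2, 28641228 to 28691167, plus strand) was at 3.12, 3.47, 3.07, 2.74 and 3.21 FPKM in A-PDK1KO replicates 1 to 5, against 2.18, 2.84, 2.60, 3.02 and 2.26 FPKM in control replicates 1 to 5. The groups overlapped, since control replicates 2 and 4 exceeded the lowest A-PDK1KO heart, replicate 4. Means were 3.12 ± 0.264 FPKM in A-PDK1KO and 2.58 ± 0.359 FPKM in control hearts (limma difference 0.21, unadjusted p = 0.0370, adjusted p = 0.288). Tsc2 averaged 6.89 ± 0.361 FPKM in A-PDK1KO and 7.90 ± 1.34 FPKM in control hearts (limma difference -0.16, 95% interval -0.38 to 0.06), and it overlaps Pkd1 on the opposite strand. The ratio of Tsc1 to Tsc2 within a heart was 0.455 ± 0.058 in A-PDK1KO and 0.333 ± 0.056 in control hearts, and the lowest A-PDK1KO value, 0.378, was just under the highest control value, so the groups overlapped. Rheb averaged 10.1 ± 0.909 FPKM in A-PDK1KO and 10.2 ± 0.725 FPKM in control hearts.

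None of the 8 members that act directly under mTORC1 or AKT on translation, glycogen and glucose transport was called. The S6 kinase genes Rps6kb1 and Rps6kb2 averaged 2.90 ± 0.550 and 1.53 ± 0.349 FPKM in A-PDK1KO hearts, against 2.93 ± 0.361 and 1.37 ± 0.305 FPKM in control hearts. The genes of the translation repressors 4E-BP1 and 4E-BP2, Eif4ebp1 and Eif4ebp2, averaged 39.9 ± 1.61 and 18.7 ± 0.651 FPKM in A-PDK1KO hearts, against 37.7 ± 4.16 and 18.3 ± 1.03 FPKM in control hearts. Gsk3a and Gsk3b, whose products inhibit glycogen synthase, averaged 24.4 ± 1.42 and 5.26 ± 0.496 FPKM in A-PDK1KO hearts, against 25.1 ± 1.70 and 4.82 ± 0.867 FPKM in control hearts. The RabGAP genes Tbc1d1 and Tbc1d4, whose products restrain movement of the glucose transporter GLUT4 to the surface, averaged 1.34 ± 0.338 and 12.5 ± 1.96 FPKM in A-PDK1KO hearts, against 1.21 ± 0.319 and 11.0 ± 1.41 FPKM in control hearts. Across these 8 genes the limma differences ran from -0.04 to 0.17. Within single hearts Tbc1d1 was 0.0858 to 0.145 times Tbc1d4 in A-PDK1KO and 0.0970 to 0.142 times in control mice.

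Counted over the members, 6 of 36 had an unadjusted limma p under 0.05, against 15.6% of all genes tested. Of these 2 were higher in A-PDK1KO, against 8.53% of all genes, and 4 lower, against 7.03%. Groups did not overlap for 3 of 36, against 4.96% of all genes tested. Foxo1 was the 1 of 36 that lay higher, against 2.72% of all genes, and Akt1 and Akt2 were the 2 of 36 that lay lower, against 2.23%. The median difference of the members was 0.08 and that of all genes 0.02, and 24 of 36 members (66.7%) and 54.6% of all genes lay above 0. The median absolute difference was 0.11 for the members and 0.10 for all genes. For 34 of the 35 members not called, the 95% interval lay within 0.5 of 0 on the log2(FPKM + 1) scale, with Irs2 as the exception. The same held for 8442 of all 9987 genes tested. These intervals bound a difference on that scale, where the pseudocount makes those of low genes smaller than true log2 ratios. They do not show that there was no difference. Of the 37 members 20 overlap, by their gene bounds, a gene on the opposite strand. Reads from shared exons cannot be told apart without the strand setting, and overlap of exons was not examined.

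**Figure D2:**
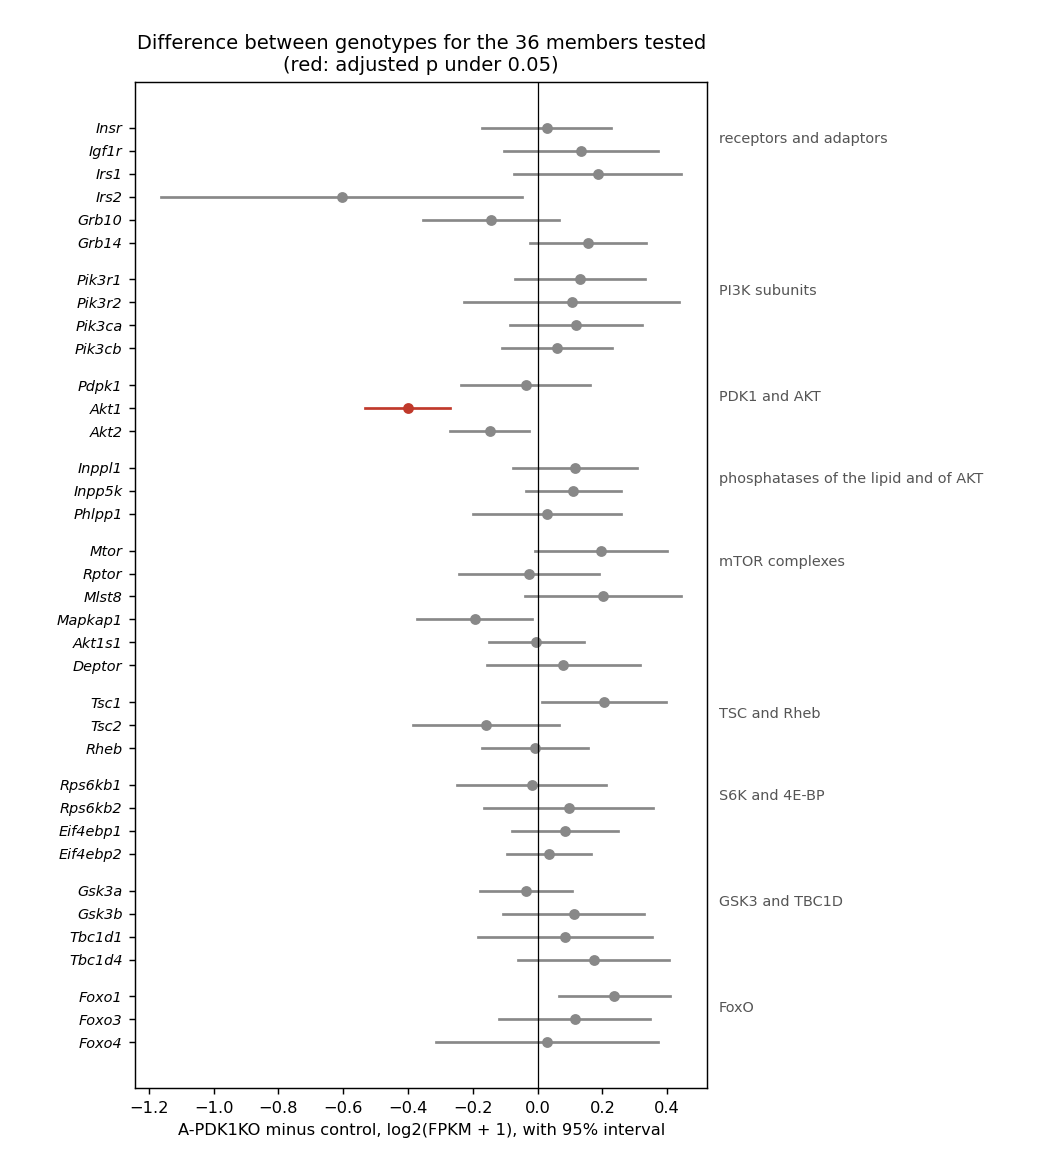
Difference A-PDK1KO minus control on the log2(FPKM + 1) scale (horizontal axis) with its 95% interval for the 36 members tested, grouped by role. Akt1 at -0.40 is the 1 gene past the threshold (red), and the widest interval belongs to Irs2 (-1.16 to -0.05).

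By level, Eif4ebp1 was the highest member in both groups. In A-PDK1KO hearts Gsk3a, Akt1 and Akt2 followed it, and in control hearts Akt1, Gsk3a and Akt2 did. Akt1 and Gsk3a exchanged places: in A-PDK1KO hearts Akt1 (21.4 to 24.8 FPKM) overlapped Gsk3a (22.6 to 26.0 FPKM), while in control hearts Akt1 (29.8 to 32.1 FPKM) lay wholly above Gsk3a (22.6 to 27.2 FPKM). Akt2 lay below Gsk3a in each heart of both groups, with ranges of 18.7 to 20.6 FPKM in A-PDK1KO and 21.2 to 23.3 FPKM in control hearts. Akt1s1, Eif4ebp2 and Foxo4 came next in both groups, and their ranges overlapped each other. The 4 lowest members in both groups were Igf1r, Rps6kb2, Tbc1d1 and Pik3c2a, all averaging under 2 FPKM. Reads per library were 181 to 324 for Igf1r and 54 to 109 for Rps6kb2, for which counting alone gives coefficients of variation of 6.27% for Igf1r and 11.5% for Rps6kb2.

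**Figure D3:**
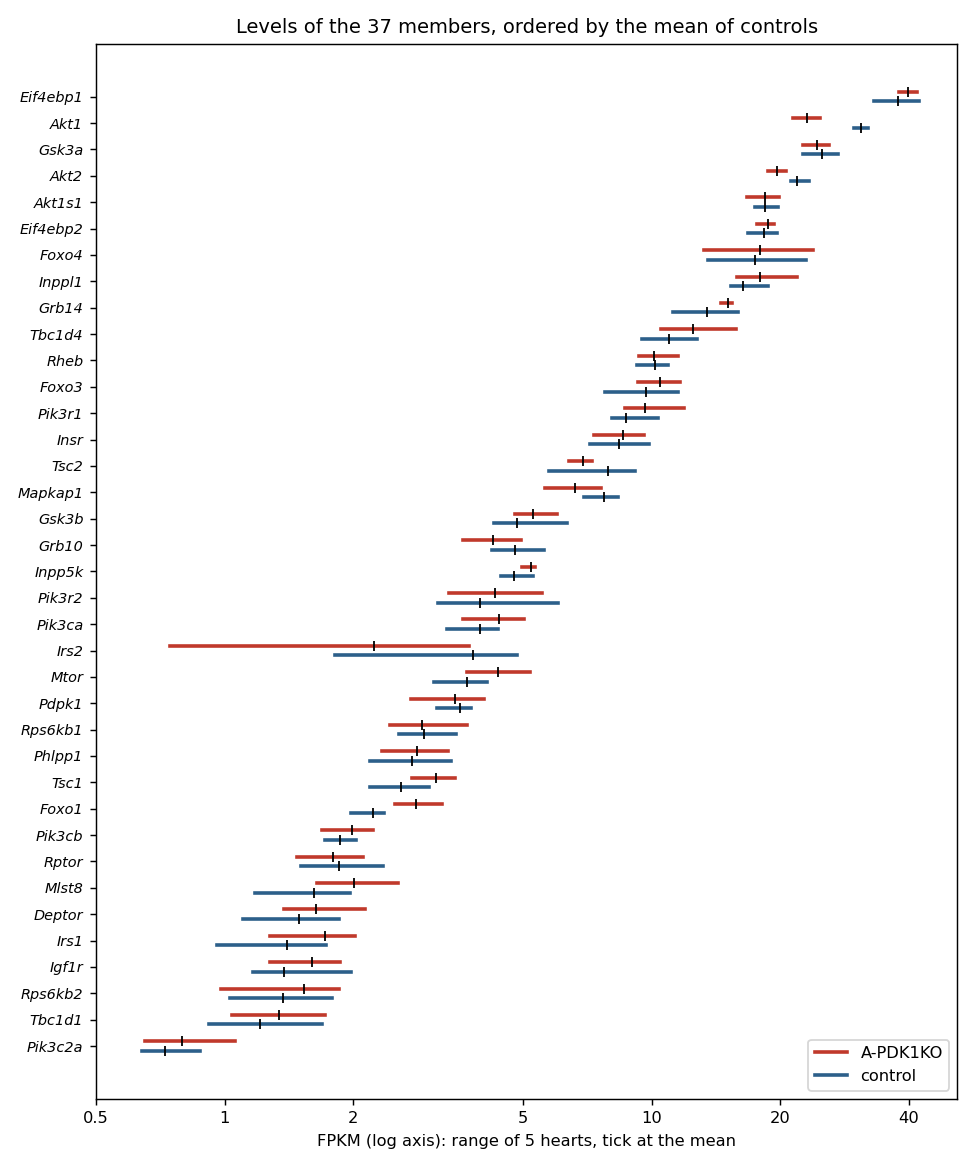
Range (line) and mean (tick) of the level in FPKM over 5 hearts per group for the 37 members (horizontal log axis), A-PDK1KO above control for each gene, ordered by the control mean. Akt1 is the 2nd highest member in control hearts and the 3rd in A-PDK1KO hearts, with ranges of 21.4 to 24.8 FPKM in A-PDK1KO and 29.8 to 32.1 FPKM in control hearts.

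Ratios of related genes within a heart do not depend on how libraries are scaled to each other. Of 14 listed pairs 12 could be computed, and in 1 the groups did not overlap. That pair joins Akt1 and Akt2, whose levels each separated the groups already, so it is not an independent result. No share over other gene pairs is given beside it. The ratio of Akt1 to Akt2 was 1.15, 1.20, 1.13, 1.25 and 1.15 in A-PDK1KO replicates 1 to 5, against 1.40, 1.41, 1.46, 1.31 and 1.48 in control replicates 1 to 5. Its mean was 1.18 ± 0.0504 in A-PDK1KO and 1.41 ± 0.0675 in control hearts (SD, n = 5 each), a log2 difference of -0.26. The nearest values were 1.25 in A-PDK1KO replicate 4 and 1.31 in control replicate 4. The other 11 pairs overlapped, including Gsk3a to Gsk3b (4.34 to 5.01 in A-PDK1KO and 4.29 to 6.02 in control hearts) and Pik3r1 to Pik3r2 (2.01 to 2.64 in A-PDK1KO and 1.71 to 2.68 in control hearts). A ratio shows unequal levels and not which of the 2 genes moved.

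**Figure D4:**
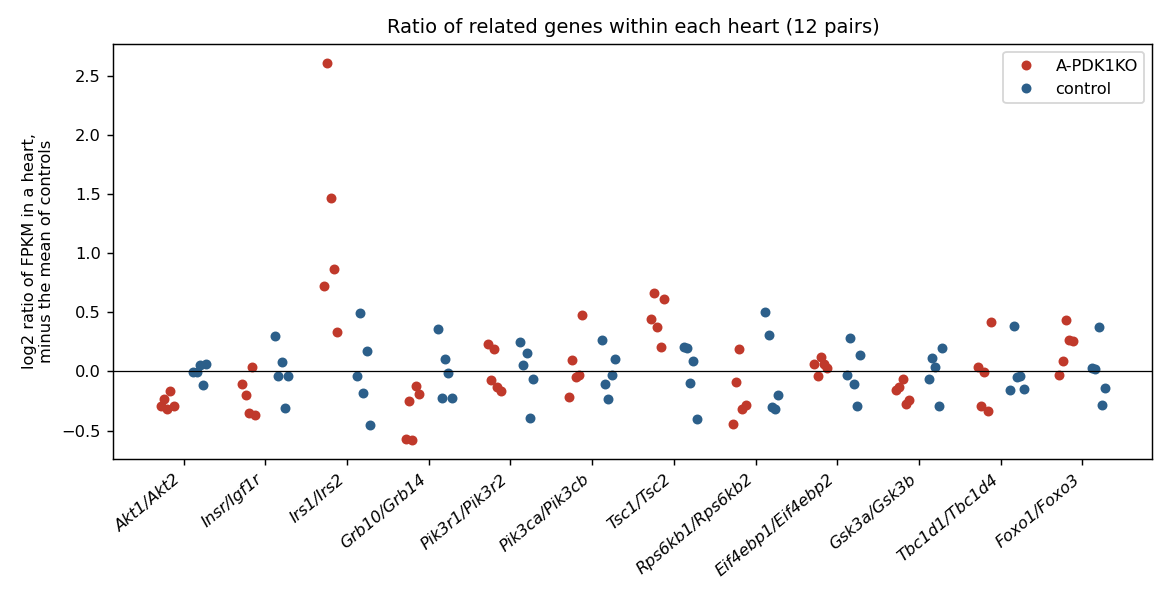
Log2 ratio of the FPKM of 2 related genes in each heart, minus the mean of the control hearts (vertical axis), for 12 pairs, A-PDK1KO points left of control points. The Akt1 to Akt2 ratio separates the groups, with a log2 difference of -0.26, and Irs1 to Irs2 has the widest spread.

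Across A-PDK1KO hearts, the median deviation of the tested members from their means ran from -0.10 in replicate 1 to 0.08 in replicate 2. Across control hearts it ran from -0.10 in replicate 1 to 0.13 in replicate 4. Over all genes tested, it was -0.08 and 0.14 in A-PDK1KO replicates 1 and 2, and -0.04 and 0.10 in control replicates 1 and 4. Of the 36 members 13 (36.1%) were highest in A-PDK1KO replicate 2, against 35.7% of all genes tested. In control replicate 4 these were 11 (30.6%), against 22.5%. The share of reads from mitochondrially encoded genes was lowest in the same hearts, 34.3% in A-PDK1KO replicate 2 and 32.7% in control replicate 4, while the remaining A-PDK1KO hearts had 36.1% to 41.5% and the remaining control hearts 37.5% to 40.4%. The part of this share in the members' levels was not tested. Akt1 was called without both hearts (limma adjusted p = 0.0253), and no other member was.

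**Figure D5:**
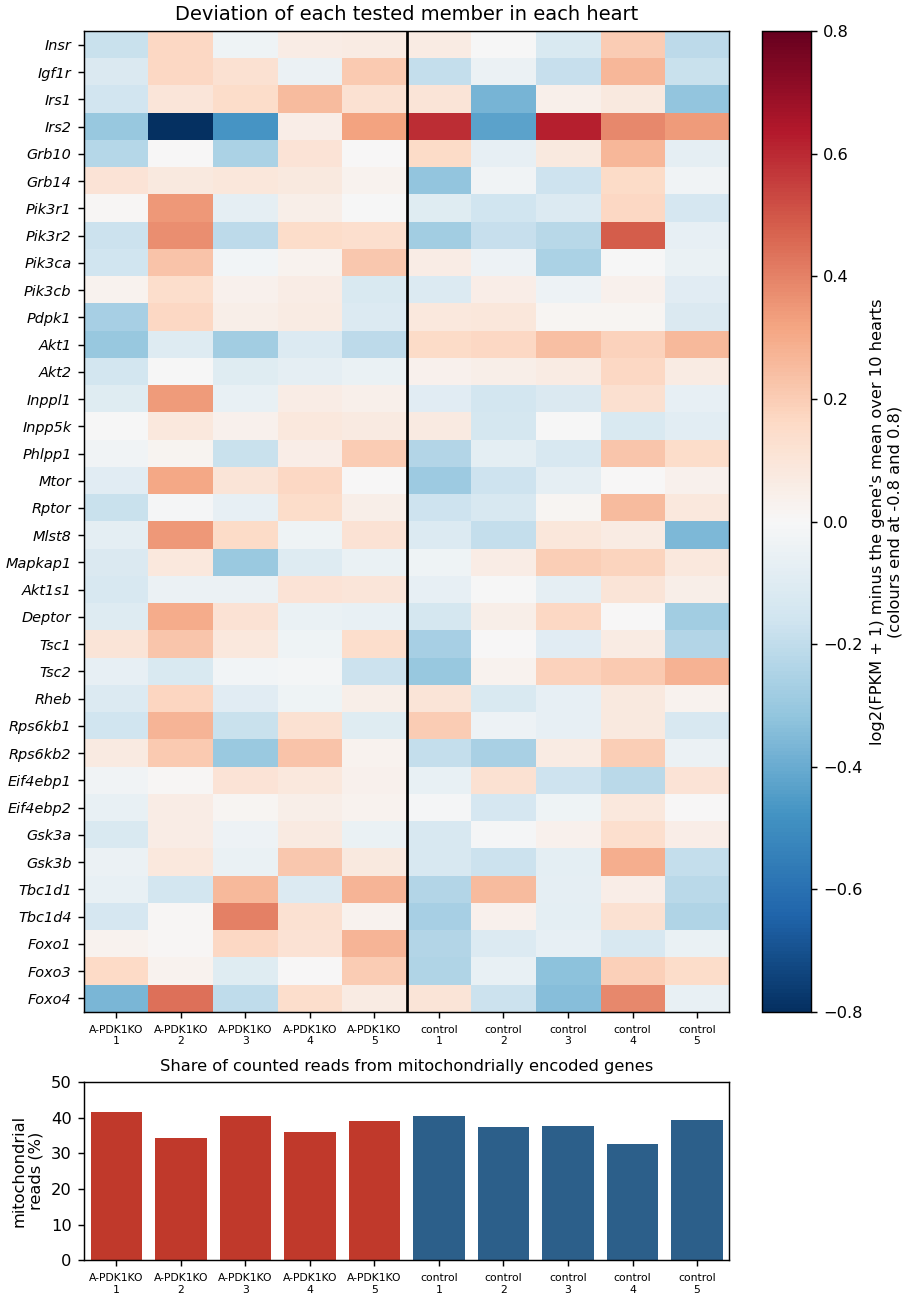
Deviation of log2(FPKM + 1) from the gene's mean over 10 hearts (colour) for 36 members, A-PDK1KO hearts left of control hearts, above the percentage of reads from mitochondrially encoded genes in each heart (bars from 0). The Akt1 row is low in all 5 A-PDK1KO hearts and high in all 5 control hearts. A-PDK1KO replicate 2 and control replicate 4 hold the highest value of 13 and 11 members, and of 35.7% and 22.5% of all genes tested.

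Of 116 other genes of the pathway, listed by role, 101 were present and 93 tested. Of these 4 rose in A-PDK1KO hearts, against 1.21% of all genes tested, and none fell, against 0.871%. At an unadjusted limma p under 0.05, 17 of the 93 were higher, against 8.53% of all genes, and 5 lower, against 7.03%. The list was made with earlier results of these data known, so these counts cannot show an excess in the pathway. The number that rose was 5 without A-PDK1KO replicate 2 and control replicate 4, and 0 on the TPM scale. By role, 2 of 19 ligand, receptor and adaptor genes and 2 of 26 downstream genes were called. None of 19 other PI3K, phosphoinositide and AKT regulator genes and none of 29 other mTOR and nutrient sensing genes were. Unadjusted limma p was under 0.05 for 6 of these 19 genes (2 higher and 4 lower in A-PDK1KO hearts). It was under 0.05 for 5 of these 29 genes, all higher, against 15.6% of all genes tested in either direction. The median difference of the 93 genes was 0.07.

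Ulk1, the kinase that starts autophagy and that mTORC1 inhibits, was at 12.5, 13.8, 14.1, 13.1 and 15.5 FPKM in A-PDK1KO replicates 1 to 5, against 9.40, 11.5, 10.9, 9.95 and 10.5 FPKM in control replicates 1 to 5. Gys1, the muscle glycogen synthase that GSK3 inhibits, was at 24.2, 24.4, 24.1, 24.6 and 25.3 FPKM in A-PDK1KO replicates 1 to 5, against 15.5, 18.7, 20.6, 20.6 and 19.0 FPKM in control replicates 1 to 5. Both genes separated the groups, and both differed by 0.37 (limma adjusted p = 0.0317 each). Gys1 overlaps Ruvbl2 on the opposite strand. Ptpn11, which encodes the phosphatase SHP2 of receptor signalling, was at 35.9, 45.5, 33.5, 35.0 and 38.3 FPKM in A-PDK1KO replicates 1 to 5, against 28.9, 27.7, 27.1, 31.1 and 28.1 FPKM in control replicates 1 to 5. Its groups did not overlap either (difference 0.38, limma adjusted p = 0.0353). Igfbp5, a binding protein of IGFs, was at 15.3, 18.2, 24.0, 21.1 and 21.8 FPKM in A-PDK1KO replicates 1 to 5, against 8.71, 17.1, 12.6, 12.7 and 11.1 FPKM in control replicates 1 to 5. Control replicate 2 exceeded A-PDK1KO replicate 1, so its groups overlapped (difference 0.66, limma adjusted p = 0.0478). These 4 calls were less firm than that of Akt1: with 1 heart left out, Ulk1, Gys1 and Ptpn11 were each called in 3 of 10 fits and Igfbp5 in 2. The highest limma adjusted p was 0.0839 for Ulk1 and for Gys1 and 0.116 for Igfbp5, each without A-PDK1KO replicate 5, and 0.0958 for Ptpn11 without control replicate 3.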

How the data were processed

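RNA from heart tissue of 10 mice, 5 A-PDK1KO and 5 control by genotype label, was compared. Per the labels' protocols, FastQC 0.11.7 was run on paired-end reads. The submitters' processing notes list mm10 as the build and, as tools, Trimmomatic 0.38, HISAT2 2.1.0 and featureCounts 1.6.3. The sources used here do not give the annotation, strand setting, library kit or any batch. The deposited values are FPKM, made by the authors, for 11790 genes, each reaching 1.00 FPKM in some heart. Their cluster column was not used.

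Whole reads were recovered from the FPKM with union exon lengths of GENCODE mouse release 21, and 98.3% of values were whole within 0.05 of a read. Depth, counting error and a voom alternative rest on these reads. No pair of hearts within a group matched within sampling noise. Values were converted to log2(FPKM + 1), and the 9987 genes that averaged 1 FPKM or more went into limma 3.58.1 under R 4.3.3 (empirical Bayes trend, two-sided, no covariate, Benjamini-Hochberg adjustment). Other values were computed in Python 3.11.15, and the limma step was tested on simulated data. Pdpk1 was also compared by exact permutation. Intervals of counting cover counting error only.

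The members, the other pathway genes, the gene pairs and the marker lists were chosen with earlier results of these data known. Values in every heart are given for Pdpk1, for members that were called, did not overlap or had an unadjusted p under 0.05, and for up to 4 called other genes per role. A gene of the pathway is not reported here. Alternatives were a pseudocount of 0.1, no filter or one of 5 FPKM, TPM, median-of-ratios, scaling without mitochondrial and haemoglobin genes, quantile normalization, voom, an atrial covariate, a replicate block and each heart left out. Hearts with Myl7 under 10 FPKM, and removal of A-PDK1KO replicate 2 with control replicate 4, were added after seeing the data.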

Additional observations from a re-analysis of the deposited data

Results flagged for a closer look

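For each of the 37 members in each group of 5 hearts, the highest and the lowest heart were examined for a gap to the others that was large against the range of the group (over 0.71 of it). Of 74 groups 7 held such a heart, where chance gives about 1 in 20 for independent groups. The members were measured in the same 10 hearts, so these groups are not independent and the count cannot be judged against that rate. Control replicate 4 was the highest heart of its group in 6 of them. That heart also held the highest level of the 10 hearts for 22.5% of all genes tested. Igf1r was at 1.97 FPKM there, against 1.17 to 1.40 FPKM in the other control hearts. Pik3r1 was at 10.4 FPKM, against 8.06 to 8.47 FPKM. Pik3r2 was at 6.04 FPKM, against 3.16 to 3.82 FPKM. Akt2 was at 23.3 FPKM, against 21.2 to 21.7 FPKM. Inppl1 was at 18.8 FPKM, against 15.3 to 16.2 FPKM. Gsk3b was at 6.35 FPKM, against 4.26 to 4.69 FPKM. In A-PDK1KO replicate 2, Pik3r1 was at 11.9 FPKM, against 8.64 to 9.43 FPKM in its 4 group mates. These are the hearts with the lowest mitochondrial read shares, and the part of that share in these values was not tested.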

How the results depend on the processing

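Akt1 was lower in A-PDK1KO hearts under all 22 alternatives and called in 20, with limma adjusted p from 0.00509 to 0.305. The number of members called was 0 on the TPM scale and 0 in the 6 hearts with Myl7 under 10 FPKM, where 3 hearts a group were compared, and 1 in each fit without 1 heart. Over all genes, 208 calls became 62 on the TPM scale, 4 in the hearts with Myl7 under 10 FPKM and 313 (219 higher, 94 lower, against 121 and 87) with scaling that left out mitochondrial and haemoglobin genes. That scaling moved the share of higher calls to 70.0%, against 58.2%, and leaving out A-PDK1KO replicate 2 moved it to 40.9%. Leaving out 1 heart gave 57 calls (without A-PDK1KO replicate 5) to 150, and the other counts below 208 by over 1.5 times came from omitting A-PDK1KO replicate 3 (62 calls) or 1 (106 calls), or control replicate 3 (77 calls), 5 (96 calls) or 1 (123 calls). The 4 other pathway genes called became 0 on the TPM scale, 7 at a minimum of 5 FPKM, 0 in the hearts with Myl7 under 10 FPKM, 8 with scaling that left out mitochondrial and haemoglobin genes and 0 to 5 with 1 heart left out. The Pdpk1 difference, -0.036 in all hearts, lay between -0.083 and 0.027 with 1 heart left out, the highest being the fit that omitted A-PDK1KO replicate 1 (exact permutation p = 0.698); Pdpk1 has no value at a minimum of 5 FPKM and no exact p with the atrial covariate.

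A replicate block, used although same-numbered hearts did not deviate together (correlations -0.12 to 0.09, and 0 of 5 correlated best with their own number), gave 153 calls over all genes, 1 member and 2 other pathway genes. For the 34 other members not called, 0 of 730 values under the alternatives were called, and 25 of the 34 kept the sign of their difference in all. Foxo1 was the 1 that moved by more than the spread between replicates (0.33 with voom, limma adjusted p = 0.106). This sets unlike scales side by side, since voom lacks the pseudocount of 1 FPKM that makes differences of low genes smaller. The cause of the changes under the alternatives was not tested. Depth limits the members under 2 FPKM, where counting error alone reaches 11.5% (Rps6kb2).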
